A study of Mus musculus with 8 samples.

Results

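Fluocinolone acetonide (FA) is a synthetic glucocorticoid used on inflamed skin. The response it left in the epidermis of both sexes together is described here across all genes, by setting the 4 arrays from FA-treated mice against the 4 from mice given vehicle, with sex as a covariate. These are 8 of the 8 arrays of the series, and they were chosen by the sample titles, which mark sex and FA. The groups were 2 FA females, 2 FA males, 2 vehicle females and 2 vehicle males, all of strain B6129 with WT in their titles and aged 7 to 8 weeks. Every mouse, control or not, had its back shaved and received 200 µl of acetone on the back skin once, 3 days later. In the FA groups the acetone carried 2 µg of FA. Skin was taken 24 h after the treatment, and RNA of the epidermis was hybridised to Illumina bead arrays. The design names 2 animals for each condition, and each array was taken as 1 animal. The labels give 1 dose and 1 time, so nothing here speaks of earlier or later stages of the response.

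Glucocorticoids enter the cell and bind the glucocorticoid receptor, a transcription factor that is held in the cytoplasm by chaperones until the hormone arrives. The receptor then moves to the nucleus, where it raises transcription of genes with receptor sites nearby and lowers that of many inflammatory genes. In skin this class of drugs is known for calming inflammation and, with long use, for thinning the epidermis and the dermis.

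Between 44.5% and 46.9% of the 25697 probes were detected above background on 7 of the arrays, and 32.4% on FA female 2. The median unprocessed signal was 191 on FA female 2, against 99.5 to 109 on the others. Pairs of arrays correlated at 0.940 to 0.986 within FA and at 0.980 to 0.990 within vehicle, over the log2 levels of all genes. An FA and a vehicle array correlated at 0.914 to 0.959. The first principal component held 50.2% of the variance and put the FA arrays at 15.8 to 51.2, with FA female 2 at 51.2, and the vehicle arrays at -30.2 to -24.0. Results that rest on FA female 2 are given with and without it below. Precision is limited by having 4 arrays a group, and for dim genes by how little their signal exceeds background.

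FA changed the level of a large share of the epidermal genes that could be measured, in both directions and to a similar extent. Of 9416 genes tested, 1960 (20.8%) passed the limma test at a Benjamini-Hochberg adjusted p under 0.05, the rule for a call throughout. The calls were 897 genes higher in FA (9.53%) and 1063 lower (11.3%). Counts in each gene list below are to be read beside these shares. At an unadjusted p under 0.05 there were 3282 genes, or 34.9%. The effect, FA minus vehicle on the log2 scale, had a median of 0.74 among the genes called higher and of -0.78 among those called lower. The median over all genes was -0.02, with a median standard error of 0.16. Among the calls, 265 rises and 353 falls reached 2-fold, 56 rises and 72 falls reached 4-fold, and 13 rises and 13 falls reached 8-fold. The remaining 1342 calls were smaller than 2-fold.

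All 4 FA arrays lay above all 4 vehicle arrays for 1096 genes and below them for 1371, which together make 26.2% of the genes tested. Of the 1960 calls, 1763 had no overlap between FA and vehicle arrays and 197 had some. Without FA female 2 the calls were 1121 higher and 1163 lower, and 1830 of the 1960 genes remained called in the same direction. Without vehicle female 1 the calls fell to 1172, and without vehicle male 2 to 1300. None of the 1960 genes was called in the opposite direction under any of the alternatives run. Of the 152 called genes named in the text, 141 kept the call when any 1 array was left out. The others, Adgre1, Akr1c19, Cdkn1a, Gadd45b, Klf6, Klrd1, Krt14, Krt15, Msmo1, Mt2 and Tgm2, lost it without at least 1 array, at adjusted p of 0.051 to 0.105, and kept their direction. In 27 of the called genes named, the group with the lower level was detected on some of its 4 arrays only, and the fitted effect then rests in part on values at background. It was detected on 1 array for Cdo1, Ciita, Mcm2, Ptn, Scd2 and Tmprss2, on 2 for C1qa, Cdk1, Hs3st3a1, Lox and Stfa1, and on 3 for the other 16.

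The split between rises and falls depends on how the arrays are put on a common scale. The deposited values were quantile normalized, and 45.8% of the calls were then higher in FA. Scaling every array to a common median of all probes moved the median effect of all genes to -0.19 and left 687 calls, of which 174, or 25.3%, were higher. With the common median taken over the probes detected on all 8 arrays, the median effect was 0.05 and the calls were 872 higher and 983 lower. Under the scaling on all probes the median of 10 of the 43 gene lists described below turned negative. They were the lists of arrest genes, fatty acid oxidation, amino acid breakdown, autophagy, cornified envelope, barrier lipids, NF-kappaB and AP-1, circadian clock, EGF receptor control and basal keratinocytes, and their medians lay between 0.05 and 0.24 on the deposited scale.

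Calls were made at all levels of expression but were fewest among dim genes. Among the dimmest 25% of genes by mean level, 2.29% of the genes were called higher and 5.48% lower. Among the brightest 25% the shares were 14.0% higher and 14.7% lower.

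**Figure D1:**
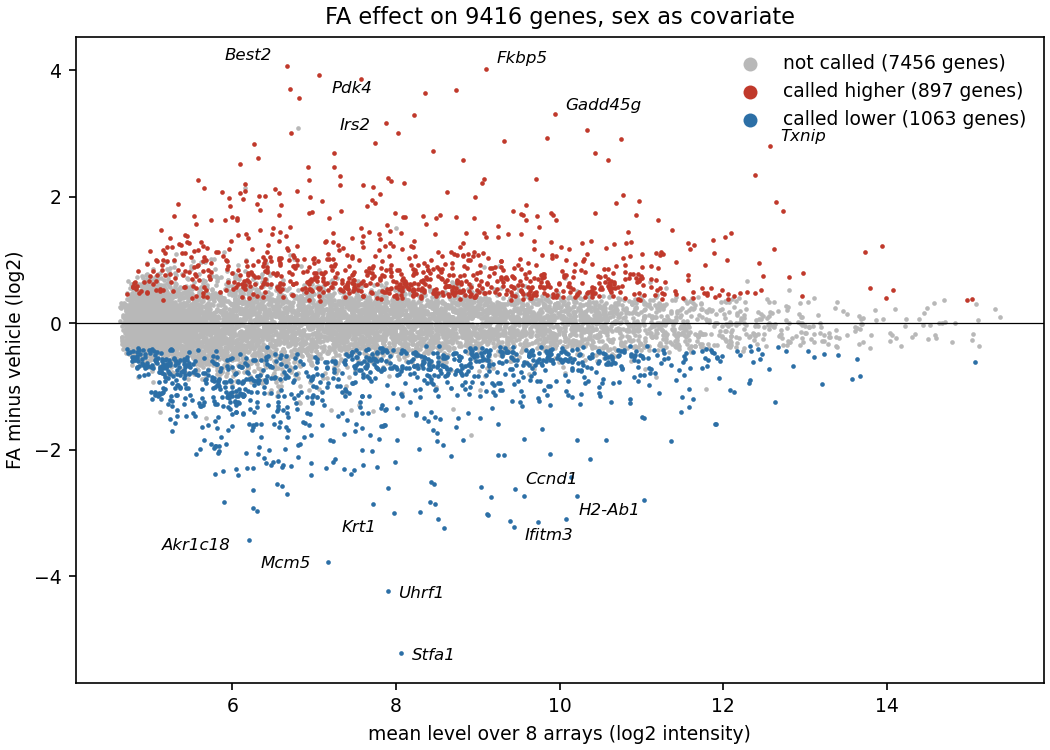
The FA effect (FA minus vehicle, log2, vertical axis) of each of 9416 genes against its mean level over the 8 arrays (log2 intensity, horizontal axis). Red points are the 897 genes called higher, blue points the 1063 called lower and grey points the 7456 not called; the calls spread on both sides of 0 at levels from 5 to 15.

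Known targets of the glucocorticoid receptor stood among the largest rises. Fkbp5, a receptor co-chaperone that is among the most widely used reporters of glucocorticoid action, had log2 levels of 11.26 and 10.94 in FA females and 11.16 and 11.07 in FA males. The vehicle arrays had 7.41 and 7.28 in females and 6.55 and 7.13 in males, and where 4 values follow each other below they stand in the same order, females before males. The effect was 4.01 ± 0.18 (SE), a 16.2-fold rise, with limma's adjusted p at 1.34e-05, and the groups were far apart on every array. Pdk4, the kinase that turns off pyruvate dehydrogenase and so spares glucose, had 8.74, 9.08, 8.97 and 9.29 on the FA arrays, against 4.92, 4.79, 5.49 and 5.17 on the vehicle arrays. It was 15.2-fold higher (3.93 ± 0.15, adjusted p = 1.28e-05 by limma), with effects of 4.06 in females and 3.80 in males.

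Best2, a calcium-gated chloride channel of secretory epithelia, was not detected on any vehicle array and was detected on all 4 FA arrays, at 9.05 and 8.85 in females and 8.07 and 8.82 in males. Its rise was at least 13.5-fold, where the bound sets the FA mean against the lowest level of a detected probe on the vehicle arrays. Spsb1, an adaptor that hands inducible nitric oxide synthase to degradation, rose 14.6-fold (3.87 ± 0.23). Tmprss2, a membrane serine protease, was detected on 1 of 4 vehicle arrays and had an effect of 3.70 ± 0.32 against vehicle levels at background, with FA female 2 lowest of the FA arrays at 7.43 against 8.81 to 9.18 on the other FA arrays. Serpina3n, an inhibitor of serine proteases, had 9.94, 9.80, 10.62 and 10.32 on the FA arrays. Its vehicle levels were 5.63 and 5.04 in females and 7.75 and 7.73 in males, so that its rise was 4.54 in females and 2.73 in males.

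The other genes of the 20 largest rises were Sectm1b, Hs3st3a1, Gadd45g, Fam180a, Irs2, Gpnmb, Mup2, Spink2, Cyp2b10, Ddit4, Tango2, Sult1a1, Cdo1 and Txnip, with effects between 2.81 and 3.68. Hs3st3a1 makes a sulfate mark on heparan chains, Gadd45g belongs to a family of growth arrest genes, and Spink2 inhibits proteases. Cyp2b10 and Sult1a1 are enzymes of drug metabolism, and Cdo1 degrades cysteine. Cyp2b10 has a second, dimmer probe with an effect of -0.12. Mup2 is 1 of many nearly identical major urinary protein genes, whose signals a probe may not tell apart. Its FA levels were 10.38 and 8.54 in females and 10.74 and 8.48 in males, a wide spread that stayed above the vehicle range of 6.01 to 7.37. Tmod4, which caps actin filaments, and Trp53inp1, a stress gene that promotes autophagy, joined these among the 10 rises with the smallest p.

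**Figure D2:**
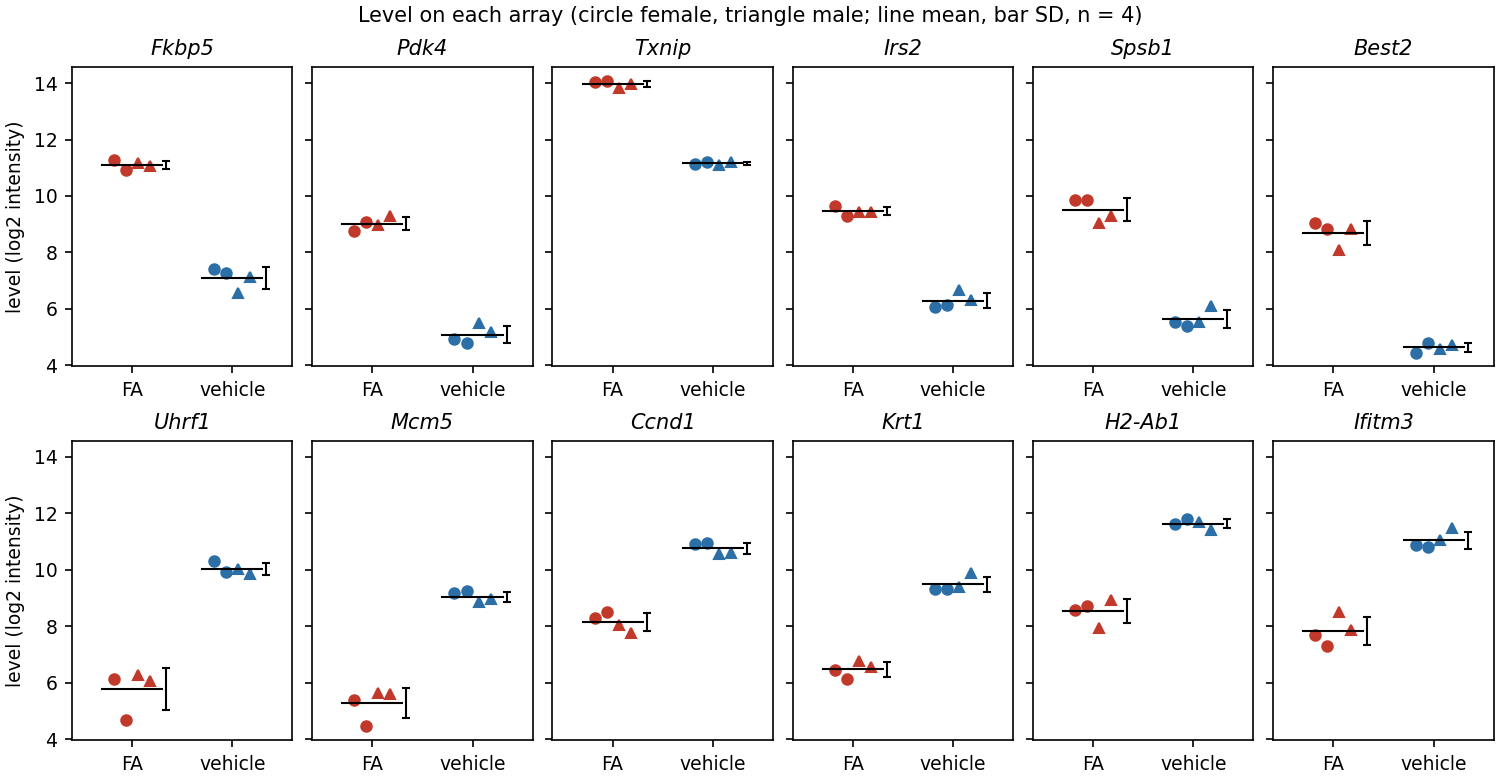
Levels (log2 intensity, vertical axis) of 6 genes that rose (top row) and 6 that fell (bottom row) on the 4 FA arrays (red, left) and the 4 vehicle arrays (blue, right). Circles are females and triangles males, the black line is the mean and the bar the SD over 4 arrays; in none of the 12 genes do the groups overlap.

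A list of 43 genes known to be induced by glucocorticoids had 38 members tested. Of these, 28 were called higher, against 9.53% of all genes, none was called lower, and the median effect was 1.19, against -0.02 over all genes. Without FA female 2, 30 were called higher. The mean level of the list was 9.51 to 9.78 on the FA arrays and 8.08 to 8.26 on the vehicle arrays. This list names genes for just this response and was chosen with earlier results of these data known. Its count thus describes these members only and does not estimate what share of known targets answered.

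Its members span several roles. Those that act on the hormone signal itself or on inflammation included Tsc22d3, which encodes GILZ, a protein that restrains NF-kappaB and AP-1. Tsc22d3 had 13.63, 13.71, 13.45 and 13.45 on the FA arrays, against 10.95, 11.54, 10.92 and 11.48 on the vehicle arrays, a rise of 2.33 ± 0.18. Dusp1, a phosphatase that turns off MAP kinases, rose by 1.11 ± 0.13. Zfp36, which destabilises cytokine mRNAs, rose by 1.02 ± 0.14, and Nfkbia, the inhibitor that holds NF-kappaB in the cytoplasm, by 0.94 ± 0.14. Errfi1, a feedback inhibitor of the EGF receptor, rose by 1.47 ± 0.14.

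Members that act on metabolism and growth included Sgk1, a kinase of salt transport and survival. Its levels were 12.75, 12.51, 12.79 and 12.75 on the FA arrays, against 11.36, 11.33, 11.32 and 11.33 on the vehicle arrays, where the 4 animals were almost the same. Txnip, which limits glucose uptake, had 14.03, 14.07, 13.82 and 13.96 on the FA arrays, against 11.12, 11.21, 11.11 and 11.21 on the vehicle arrays, a 7.0-fold rise. Angptl4, an inhibitor of lipoprotein lipase, rose by 2.21 ± 0.17, and Glul, which makes glutamine, by 2.01 ± 0.19. The metallothioneins Mt1 and Mt2, which bind zinc and copper, rose by 1.13 ± 0.13 and by 1.06 ± 0.24. Further members called higher were Klf9, Map3k6, Bcl6, Ccn2, Tgm2, Gadd45b and Klf6, with effects between 0.54 and 1.91.

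The other 10 members were not called. Lpin1 had an effect of 1.01 ± 0.37 (adjusted p = 0.0895 by limma), and Cdkn1c had an effect of 0.62 ± 0.40. Lpin1 had 6.47, 4.87, 6.91 and 6.72 on the FA arrays, against 4.92 to 5.58 on the vehicle arrays. Cdkn1c had 6.72, 4.82, 7.52 and 7.27 on the FA arrays, against 5.49 to 6.49 on the vehicle arrays. In both genes FA female 2 was lowest, under its floor of 5.88 for a detected probe. The other FA arrays lay above every vehicle array. Hif3a was detected on 2 FA arrays and on no vehicle array. Anxa1, long described as a mediator of glucocorticoid action in inflammation, had 0.30 ± 0.14. The effects of the remaining 6 lay between -0.23 and 0.27.

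The receptor's own machinery was measured less well. In a list of receptors, their chaperones and steroid enzymes, 16 genes were tested, none was called higher and 2 were called lower, Fkbp4 and Akr1c18. Fkbp4, a co-chaperone that helps to carry the receptor to the nucleus, fell by 0.91 ± 0.11. Its effect thus had the opposite sign to that of its relative Fkbp5. The probe for Nr3c1, the receptor itself, was detected on 1 FA array and 1 vehicle array, so its level was not measured well enough to compare.

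Promoter sequence was read for 7655 of the 9416 genes, from RefSeq starts on build GRCm38.p6, in a window of 250 bases before to 50 after the start. The letters ACANNNTGT, the core of the palindrome that the glucocorticoid receptor binds, were searched on both strands. They occurred in 4.97% of the promoters of genes called higher, in 4.16% of those called lower and in 4.27% of those of genes not called. Over all promoters in the table the share was 6.85%, and over those of all genes tested 4.33%. Among the rises of at least 4-fold, 7 of 64 promoters held the letters (10.9%). In the glucocorticoid-induced list 7 of 50 did (14.0%). The shorter letters TGTTCT, an arm of the receptor's site, showed no such difference. They stood in 13.3% of the promoters of genes called higher and in 13.2% of those of all genes tested. Among the rises of at least 4-fold their share was 9.38%, and in the glucocorticoid-induced list 14.0%. These are counts of letters near the start, and the receptor also binds far from promoters. The genes of the list that were called higher and hold the core in the 250 bases before a start were Glul, Map3k6, Mt1, Sgk1 and Txnip. The sequences of 3 of them are shown on the gene's strand, 5′ to 3′, as examples, with the core in capitals. They lie at chr3:96557707-96557956 (+ strand) for Txnip, chr1:153899679-153899928 (+ strand) for Glul and chr8:94178839-94179088 (+ strand) for Mt1, and the core begins at base -170, -25 and -92, counted back from the start.
Txnip: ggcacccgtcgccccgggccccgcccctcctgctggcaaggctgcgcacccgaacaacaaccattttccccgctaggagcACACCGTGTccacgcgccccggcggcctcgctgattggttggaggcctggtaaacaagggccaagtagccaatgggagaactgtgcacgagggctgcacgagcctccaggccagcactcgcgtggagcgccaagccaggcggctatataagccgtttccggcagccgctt
Glul: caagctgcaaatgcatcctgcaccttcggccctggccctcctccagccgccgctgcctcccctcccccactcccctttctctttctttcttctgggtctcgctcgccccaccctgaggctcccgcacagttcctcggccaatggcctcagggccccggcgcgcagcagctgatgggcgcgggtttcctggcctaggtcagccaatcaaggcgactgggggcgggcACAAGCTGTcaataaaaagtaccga
Mt1: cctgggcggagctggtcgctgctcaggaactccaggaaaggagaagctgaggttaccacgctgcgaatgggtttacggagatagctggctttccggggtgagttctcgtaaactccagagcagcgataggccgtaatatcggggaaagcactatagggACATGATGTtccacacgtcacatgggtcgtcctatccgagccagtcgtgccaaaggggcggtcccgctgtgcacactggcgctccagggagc

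Among genes of the insulin and mTOR pathway, rises outnumbered falls. Insulin signals through receptor substrates and PI3 kinase to switch on mTOR and to keep FoxO factors out of the nucleus. In a list of this pathway 34 genes were tested, 14 were called higher and 4 lower, and the median effect was 0.39. Without FA female 2 the counts were 15 and 4, and with median scaling 6 and 4. Irs2, an insulin receptor substrate, had 9.64, 9.31, 9.42 and 9.45 on the FA arrays, against 6.06, 6.15, 6.68 and 6.30 on the vehicle arrays, an 8.93-fold rise. Pik3r1, the regulatory subunit of PI3 kinase, rose by 2.08 ± 0.13. Ddit4 and Sesn1, which both inhibit mTOR, rose by 2.90 ± 0.17 and by 2.03 ± 0.13. Irs2, Pik3r1, Ddit4, Sesn1 and Sgk1 are members of the glucocorticoid-induced list too, so the lists are not independent.

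Fuel genes moved in both directions. Among 38 genes of fatty acid oxidation and peroxisomes, 6 were called higher and 4 lower, against 9.53% and 11.3% of all genes. Besides Pdk4 and Angptl4, Plin5, a coat protein of lipid droplets, rose by 2.21 ± 0.20. Acaa2, a thiolase of mitochondria, fell by 1.14 ± 0.14, and Acaa1b, a thiolase of peroxisomes, was undetected on all FA arrays and at least 4.25-fold lower. Glycolysis had 8 of 18 genes called lower and 3 higher, with a median of -0.55. Within each sex the median of this list was -0.63 in females and 0.02 in males. Tpi1, the triosephosphate isomerase, had 10.74, 10.65, 11.20 and 11.06 on the FA arrays, against 12.10, 11.78, 12.62 and 12.47 on the vehicle arrays. Ldha, Pkm and Gapdh fell by 1.20 ± 0.13, by 1.10 ± 0.12 and by 0.71 ± 0.11. Slc2a3, a glucose transporter, rose by 1.13 ± 0.14.

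Among subunits of the respiratory chain, falls outnumbered rises. Of 71 genes of oxidative phosphorylation, 30 were called lower, against 11.3% of all genes, 1 was called higher, and the median effect was -0.43. The largest single fall was that of Ndufa1, a subunit of complex I, at 1.07 ± 0.13. Ndufa1 had 9.42, 9.30, 9.84 and 9.61 on the FA arrays, against 10.60, 10.67, 10.51 and 10.66 on the vehicle arrays. With median scaling 6 of the 71 were called lower, and without FA female 2 24 were. Cytosolic ribosomal proteins gave 1 rise and 1 fall among 58 genes and a median of -0.18. Ribosome biogenesis gave 1 call among 40.

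Amino acid genes changed in both directions. In a list of the amino acid response and serine synthesis, 6 of 25 genes were called higher and 3 lower. Over all genes the shares were 9.53% and 11.3%. Slc7a5 and Slc3a2, the 2 chains of a transporter of large neutral amino acids, rose by 2.27 ± 0.18 and by 1.24 ± 0.16. Psat1, an enzyme of serine synthesis, had 7.66, 7.75, 7.85 and 7.72 on the FA arrays, against 10.64, 10.46, 10 and 10.20 on the vehicle arrays, and fell by 2.58 ± 0.15. Among 27 genes of amino acid breakdown, 5 were called higher and 3 lower, against the same shares of all genes. Prodh, which starts the breakdown of proline, rose by 1.37 ± 0.15, and Oat, which links ornithine to proline, fell by 2.14 ± 0.15.

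Among the genes of DNA replication, falls far outnumbered rises. Cells entering S phase switch on the MCM helicase, polymerases, nucleotide synthesis and histones through E2F factors. Of 44 replication genes tested, 30 were called lower, against 11.3% of all genes, and 1 was called higher. The median effect was -1.11, and 36 were called lower without FA female 2. Mcm5, a subunit of the helicase, had 5.40, 4.47, 5.64 and 5.59 on the FA arrays, against 9.17, 9.23, 8.86 and 8.95 on the vehicle arrays, and fell by 3.77 ± 0.25. Uhrf1, which carries DNA methylation through replication, had 6.13, 4.67, 6.26 and 6.06 on the FA arrays, against 10.31, 9.91, 10.01 and 9.84 on the vehicle arrays, and fell by 4.24 ± 0.33. For both genes the lowest value was on FA female 2, where the probe was not detected.

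Mcm4 fell by 1.83 ± 0.13, and Mcm2, detected on 1 of 4 FA arrays, had an effect of -2.96 ± 0.22. Tk1, the thymidine kinase, was not detected on any FA array and was at least 4.36-fold lower, while its second, dimmer probe had an effect of -0.19. Mcm10 and Clspn, which act at the replication fork, were likewise undetected in FA and at least 3.66-fold and 3.19-fold lower. The exception was Cdc6, a factor that loads the helicase, which rose by 0.73 ± 0.15. Pcna had an effect of -0.30 ± 0.29 and was not called. Its levels were 5.69, 6.97, 5.47 and 5.21 on the FA arrays, against 6.10 to 6.18 on the vehicle arrays. FA female 2 thus lay above the vehicle range, and the other FA arrays lay below it.

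Mitotic genes were also called lower more often than all genes were. In a list of G2 and mitosis 18 of 35 genes were called lower and 1 higher, with a median of -0.77. Without FA female 2 the count of falls was 24. Birc5, which encodes survivin, had 6.0, 5.22, 6.13 and 5.23 on the FA arrays, against 7.66, 7.41, 7.70 and 7.77 on the vehicle arrays. Cdk1, the mitotic kinase, fell by 1.61 ± 0.19. Ccnd1, the cyclin that carries cells out of G1, had 8.31, 8.49, 8.04 and 7.75 on the FA arrays, against 10.91, 10.95, 10.55 and 10.61 on the vehicle arrays. Its fall of 2.61 ± 0.12 was seen with all 3 of its probes, with effects of -2.61, -2.49 and -1.57. Among 19 inhibitors of the cell cycle and arrest genes, 5 were called higher and 1 lower. Gadd45g, Trp53inp1 and Sesn1 led them, and Cdkn1a, which encodes p21, rose by 0.48 ± 0.12. With median scaling 3 were called higher and the median of this list turned from 0.24 to -0.04.

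Of the 20 largest falls, 5 were H2A histone genes, H2ac12, H2ac10, H2ac22, H2ac15 and H2ac7, with effects of -3.24 to -3.01. H2ac7 fell by 3.01 ± 0.15. The H2A genes are nearly identical copies, so their probes may read the same transcripts and do not count as 5 separate falls.

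The letters TTTCCCGC or TTTGGCGC, forms of the E2F site, were searched on both strands of the same promoters. They stood in 10 of 47 promoters of the replication list (21.3%), in 3.78% of those of all genes called lower and in 2.48% of those of all genes tested. Over all promoters in the table the share was 1.56%. Cdc6, the member that rose, holds such a match too. The promoters of Mcm5, described above, and of Mcm6, which fell by 1.85 ± 0.21, are shown with the matches in capitals, at chr8:75109259-75109508 (+ strand) and chr1:128359706-128359955 (- strand). In Mcm5 the match begins at base -149, and in Mcm6 a match begins at base -110 and another at base -47.
Mcm5: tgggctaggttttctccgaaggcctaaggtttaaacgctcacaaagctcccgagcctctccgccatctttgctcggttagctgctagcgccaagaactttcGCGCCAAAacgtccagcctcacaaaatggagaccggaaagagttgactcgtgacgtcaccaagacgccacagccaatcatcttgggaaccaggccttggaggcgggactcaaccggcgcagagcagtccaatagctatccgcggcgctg
Mcm6: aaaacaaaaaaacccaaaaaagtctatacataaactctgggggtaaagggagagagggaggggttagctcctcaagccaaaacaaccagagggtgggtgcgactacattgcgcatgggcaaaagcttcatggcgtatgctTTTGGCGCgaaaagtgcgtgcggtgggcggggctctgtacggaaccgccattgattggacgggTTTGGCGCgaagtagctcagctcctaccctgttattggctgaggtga

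Among the genes of cholesterol synthesis most were called lower. Cholesterol is a main lipid of the epidermal barrier, and its enzymes are switched on together when cells run short of sterols. Of 19 genes tested, 11 were called lower, none was called higher, and the median effect was -0.71. Fdps, which makes farnesyl diphosphate, had 10.63, 10.49, 11.10 and 10.88 on the FA arrays, against 12.37, 12.10, 12.19 and 12.08 on the vehicle arrays, and fell by 1.41 ± 0.15. Sqle, Lss and Stard4, which act on squalene, lanosterol and cholesterol transport, fell by 1.26 ± 0.15, by 1.47 ± 0.19 and by 1.24 ± 0.17. Their FA levels did not overlap the vehicle levels. The mean level of the list was 8.18 and 7.88 in FA females and 8.89 and 8.67 in FA males, against 8.87 to 9.30 on the vehicle arrays, so the FA females lay lowest. With median scaling 7 of the 19 were called lower.

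In fatty acid synthesis 5 of 23 genes were called lower and 2 higher. Acss2, which makes acetyl-CoA from acetate, fell by 2.54 ± 0.21, and Scd2, a desaturase, by 1.22 ± 0.18. Fads1, another desaturase, rose by 1.11 ± 0.19. The sterol element TCACNCCAC stood in 1 of 21 promoters of the cholesterol list. CCAAT, the box that factor NF-Y binds, stood in 16 of 21 (76.2%), against 37.3% over all genes tested. It stood in 65.2% of the promoters of genes that fell at least 4-fold and in 37.4% of all promoters in the table. Other lists also held it often: 74.2% of promoters in G2 and mitosis and 59.6% in DNA replication. In the glucocorticoid-induced list, whose calls were rises, the share was 54%. The box is thus not particular to the cholesterol list or to genes that fell. The promoter of Msmo1, a methylsterol oxidase that fell by 0.71 ± 0.17, is shown as an example, at chr8:64733579-64733828 (- strand). Among the sterol genes called lower whose promoters were read, it held the most boxes in the 250 bases before the start. Its 3 boxes, in capitals, begin at bases -160, -96 and -55.
Msmo1: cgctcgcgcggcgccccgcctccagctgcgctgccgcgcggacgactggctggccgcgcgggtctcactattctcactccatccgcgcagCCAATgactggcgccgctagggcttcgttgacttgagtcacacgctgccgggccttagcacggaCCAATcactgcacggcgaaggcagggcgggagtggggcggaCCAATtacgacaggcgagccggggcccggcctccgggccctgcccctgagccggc

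Among immune genes of the epidermis the falls outnumbered the rises, with antigen presentation in front. Langerhans cells, the dendritic cells of the epidermis, carry MHC class II molecules and langerin, the product of Cd207. In their list 15 of 23 genes were called lower, against 11.3% of all genes, 1 was called higher, and the median effect was -1.02. H2-Ab1, a class II chain, had 8.56, 8.70, 7.95 and 8.93 on the FA arrays, against 11.61, 11.80, 11.70 and 11.41 on the vehicle arrays, an 8.55-fold fall. H2-Eb1, another class II chain, had an effect of -2.72 ± 0.20. Cd74, the class II invariant chain, and Ciita, the master regulator of class II genes, had effects of -2.43 ± 0.26 and -2.02 ± 0.15. Cd207 fell by less, 0.94 ± 0.21, with 8.92, 8.87, 7.97 and 8.58 on the FA arrays and 9.60, 9.61, 9.81 and 9.07 on the vehicle arrays. In a whole epidermis, fewer cells of a type and less RNA per cell cannot be told apart.

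Markers of dendritic epidermal T cells, the resident T cells of mouse epidermis, gave 8 falls and 2 rises among 17 genes, with a median of -0.24. Thy1 fell by 1.92 ± 0.21 and Cd3g, a chain of the T cell receptor complex, by 1.04 ± 0.15. Klrd1 rose by 0.77 ± 0.20. Thy1 also marks fibroblasts.

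Interferon and MHC class I genes gave 16 falls and 2 rises among 48, with a median of -0.34. Ifitm3, which blocks virus entry, had 7.67, 7.29, 8.49 and 7.88 on the FA arrays, against 10.87, 10.80, 11.07 and 11.47 on the vehicle arrays, a 9.31-fold fall. Irf1, an interferon-induced transcription factor, fell by 2.51 ± 0.15, and Psmb10, an immunoproteasome subunit, by 1.68 ± 0.20. Cytokines and chemokines gave 9 falls and 3 rises among 32. Il33, an alarm cytokine kept in keratinocyte nuclei, had 6.90, 6.72, 6.54 and 6.64 on the FA arrays, against 8.83, 8.50, 8.66 and 8.91 on the vehicle arrays. Il15, which sustains T cells, fell by 1.63 ± 0.21, and Ccl27a, a skin chemokine that draws T cells, rose by 1.22 ± 0.17. Of 40 genes of the NF-kappaB and AP-1 pathway, 6 were called higher and 4 lower. The rises with the smallest p were those of Dusp1, Nfkbia and Nfkbiz, and the falls were those of Icam1 and Nfkb2. With median scaling 1 was called higher and 3 lower.

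The epidermal label was borne out by keratinocyte markers: Krt5, Krt14, Krt15, Krt10 and Krt1 were detected on all 8 arrays. Krt1, the keratin that replaces Krt5 as cells leave the basal layer, had 6.44, 6.12, 6.78 and 6.56 on the FA arrays, against 9.32, 9.33, 9.38 and 9.87 on the vehicle arrays. It fell 8.02-fold (3.00 ± 0.15, limma's adjusted p = 1.4e-05), as read by 1 probe. Of 12 suprabasal markers tested, with a median effect of -0.10, 1 was called higher and the only 1 called lower was Krt1. Its partner Krt10 had an effect of -0.35 ± 0.11 and was not called (adjusted p = 0.061 by limma), with levels of 14.91 to 15.46 at the top of the scale, where 15.46 is the highest value of an array and a probe may be saturated. Krt5 fell by 1.16 ± 0.21. Krt16, a keratin of wounded and inflamed skin, fell by 3.09 ± 0.60. The Krt16 levels were 7.07, 5.16, 8.45 and 7.17 on the FA arrays and 8.79, 9.0, 9.97 and 12.46 on the vehicle arrays, with vehicle male 2 far above the rest. Stfa1, a stefin that inhibits cysteine proteases, had an effect of -5.22 ± 0.64. It was detected on 2 of 4 FA arrays, so that part of its FA values lay at background, and its vehicle levels ranged widely, from 8.48 to 13.46, with vehicle male 2 highest. The wound and activation list to which both belong gave 9 falls and 1 rise among 24 genes.

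Genes of late differentiation gave few calls. Of 41 genes of the cornified envelope, the protein shell of dead surface cells, 5 were called higher, a share near that of all genes, and none lower. Ivl, which encodes involucrin, rose by 0.83 ± 0.16, and the other 4 rises were of 0.38 to 0.52. With median scaling 1 of the 41 was called higher and 1 lower, and the median turned from 0.13 to -0.15. In barrier lipid synthesis 4 of 30 genes were called higher and 2 lower. Aloxe3 and Alox12b, a pair of lipoxygenases of the barrier, rose by 1.20 ± 0.13 and by 0.77 ± 0.16. Alox12e, another lipoxygenase, and Acer1, a ceramidase, fell by 1.84 ± 0.21 and by 1.20 ± 0.14.

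Junction genes gave 5 rises and 7 falls among 38, against 9.53% and 11.3% of all genes. Gja1, which encodes a connexin, fell by 1.60 ± 0.14, and Panx3, a pannexin channel, fell by 2.98 ± 0.50. F11r and Cldn1, proteins of tight junctions, rose by 1.21 ± 0.13 and by 0.88 ± 0.13. Basal markers gave 5 rises and 6 falls among 15. Ptn, a heparin-binding growth factor, was detected on 1 of 4 FA arrays and had an effect of -2.92 ± 0.16, and Dst, which anchors keratin to hemidesmosomes, rose by 1.21 ± 0.21.

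Among matrix genes, too, falls outnumbered rises. Of 42 genes of collagens and matrix, 16 were called lower and 4 higher, with a median of -0.70. Col18a1, a collagen of basement membranes, had 7.11, 6.61, 7.33 and 7.17 on the FA arrays, against 9.57, 9.78, 9.98 and 10.28 on the vehicle arrays, a 7.20-fold fall. Thbs2, which encodes thrombospondin 2, fell by 2.83 ± 0.27, and Mmp9, a matrix protease, by 1.33 ± 0.18. Lox, which crosslinks collagen, rose by 0.93 ± 0.14. Of 19 markers of dermal fibroblasts, 5 were called lower and 1 higher. Their median effect was -0.99, with -0.57 in females and -1.31 in males. Their mean level was 6.11 and 5.52 in FA females, against 6.43 and 6.35 in vehicle females. In males it was 6.44 and 6.77 with FA, against 8.13 and 7.39 with vehicle, so the ranges of FA and vehicle overlapped over both sexes. Of the 19 markers, 4 were detected on all 8 arrays. Thbs2 and Thy1 are members of that list too. The part of dermal cells in the matrix result was not tested.

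Other cells than keratinocytes left uneven signals. None of 26 skeletal muscle genes was called, but their mean level ranged from 5.21 to 9.37 on the FA arrays and from 6.20 to 7.74 on the vehicle arrays. Their median effect was -1.28 in females and 1.22 in males. Endothelial markers gave no call among 13, and none of the 13 was detected on all 8 arrays. Of 7 adipocyte markers 1 was called, Pnpla2, a lipase that rose by 1.62 ± 0.11. Of 15 markers of neutrophils, macrophages and mast cells, 3 were called higher and 3 lower. C1qa, a complement chain of macrophages, rose by 1.23 ± 0.23, and Lyz2 and Adgre1 both fell by 1.31. Gpnmb, the member of the melanocyte list that was called, is also made by macrophages, and none of the other 3 melanocyte genes tested was called. Of 3 erythrocyte genes, Hba-a1 fell by 2.28 ± 0.25. How far such cells contribute to the shared effect was not tested.

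**Figure D3:**
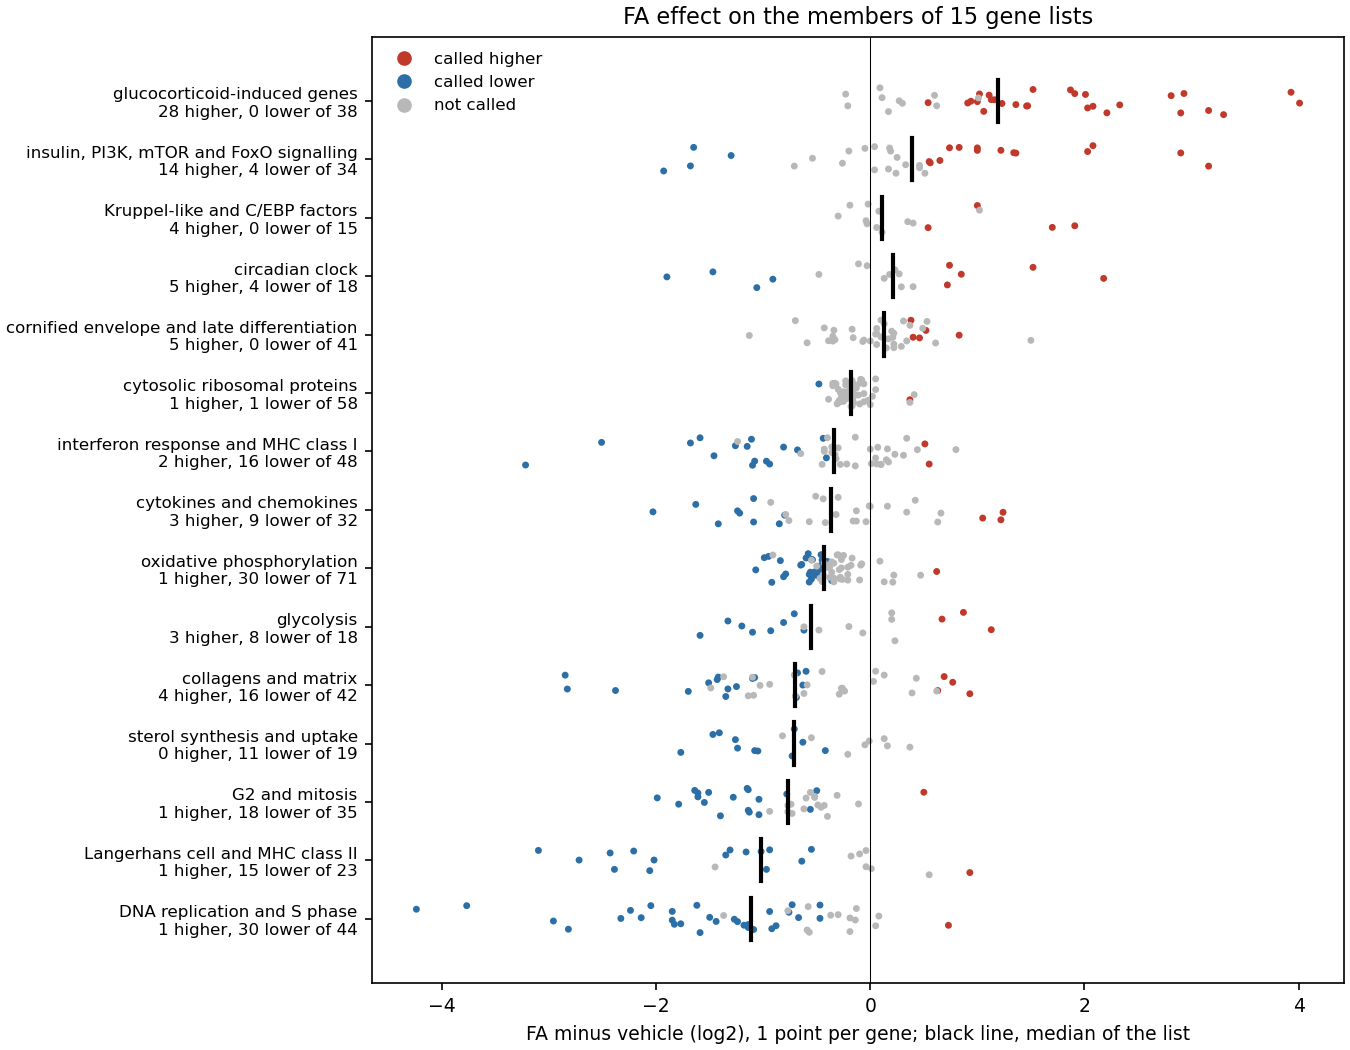
The FA effect (FA minus vehicle, log2, horizontal axis) of every tested member of 15 gene lists (rows), with 1 point per gene, red where called higher, blue where called lower and grey where not called. The black line is the median of a list; it is 1.19 for the glucocorticoid-induced genes at the top and -1.11 for DNA replication at the bottom.

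Regulators of time and stress answered in part. Among 18 circadian clock genes, 5 were called higher and 4 lower. Per1, a clock gene with receptor sites, had 10.46, 10.46, 10.40 and 10.69 on the FA arrays, against 8.87, 9.43, 8.55 and 9.10 on the vehicle arrays. Nfil3, a clock output repressor, rose by 2.18 ± 0.17, and its opponent Dbp fell by 1.47 ± 0.21. Of 15 Kruppel-like and C/EBP factors, 4 were called higher and none lower. Klf9, which glucocorticoids are known to induce, had 11.85, 11.76, 11.63 and 11.31 on the FA arrays, against 9.78, 9.69, 9.78 and 9.66 on the vehicle arrays. Klf13 rose by 1.70 ± 0.23.

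Of 22 genes that control the EGF receptor and MAP kinases, 4 were called higher and 1 lower. Lrig3, a membrane protein of a family that restrains growth factor receptors, rose by 1.13 ± 0.11. Of 41 genes of the Nrf2 and glutathione response, 12 were called lower and 6 higher. Gsta1 and Gstm2, glutathione transferases, fell by 2.19 ± 0.18 and by 1.67 ± 0.15, and Gpx1, a peroxidase, by 1.60 ± 0.16. In autophagy and the lysosome 6 of 49 genes were called higher and 3 lower, against 9.53% and 11.3% of all genes. Map1lc3b and Gabarapl1, which build autophagosomes, rose by 0.73 ± 0.12 and by 1.50 ± 0.28. Heat shock proteins gave 6 rises and 2 falls among 40, against the same shares of all genes. Proteasome subunits gave 6 falls and no rise among 38, against the same shares. With median scaling neither the heat shock nor the proteasome list held a call. The autophagy list then held 1 rise and no fall, and the Nrf2 list 1 rise and 10 falls. In the upper follicle and sebaceous gland list 2 of 20 were called higher and 4 lower, and in the hair follicle list 2 of 15 were called in each direction.

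A large share of the genes called with the sexes together did not pass in either sex alone. Tested within each sex, with the spread of all 8 arrays, 944 genes passed in females (10%), 430 of them higher (4.57%) and 514 lower (5.46%). In males 771 passed (8.19%), 378 of them higher (4.01%) and 393 lower (4.17%). All 1960 genes called with the sexes together had the same sign in both sexes. The pooled test all but requires this, because it counts a difference between the sexes as spread. Of the 1960 genes, 496 passed in both sexes, 556 in 1 sex and 908 in neither. The median size of the effect was 0.57 on the log2 scale among the 908, against 1.35 among those that passed in both, but the 908 also hold large effects such as that of Krt16. The counts in 1 sex rest on 2 arrays a group. Without 1 array, those in females lay between 216 (without vehicle female 1) and 3004 (without FA female 1), and those in males between 208 (without vehicle male 2) and 1497 (without FA female 1 or FA female 2). A further 165 genes passed in a sex without being called in the pooled test. Across all genes the effects in females and in males correlated at 0.68 (Pearson), a description over 9416 genes that are not independent replicates.

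Among the genes that passed in neither sex alone, Icam1 had the smallest p. Icam1 is the adhesion molecule that leukocytes bind on inflamed cells. Its levels were 5.33, 6.91, 6.01 and 5.62 on the FA arrays, against 7.75, 8.06, 7.85 and 7.43 on the vehicle arrays. The effect was -1.78 in females and -1.82 in males, and -1.80 ± 0.31 together (adjusted p = 0.00519 by limma). Cx3cl1, a chemokine that stays on the cell membrane, fell by 1.22 ± 0.21, with FA female 2 at 6.43, inside the vehicle range of 5.96 to 7.35. Sec14l2, a lipid transfer protein, fell by 1.90 ± 0.33. Esrra, a nuclear receptor of mitochondrial genes, fell by 0.68 ± 0.12. Dvl1, a carrier of Wnt signals, and Med12, a subunit of the Mediator complex, rose by 0.58 ± 0.10 and by 0.66 ± 0.12. Gas7, Slc4a8 and Lmtk2 rose by 0.73 to 0.90, and Sh3gl2 fell by 0.62 ± 0.11, although its second probe had an effect of 0.09.

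**Figure D4:**
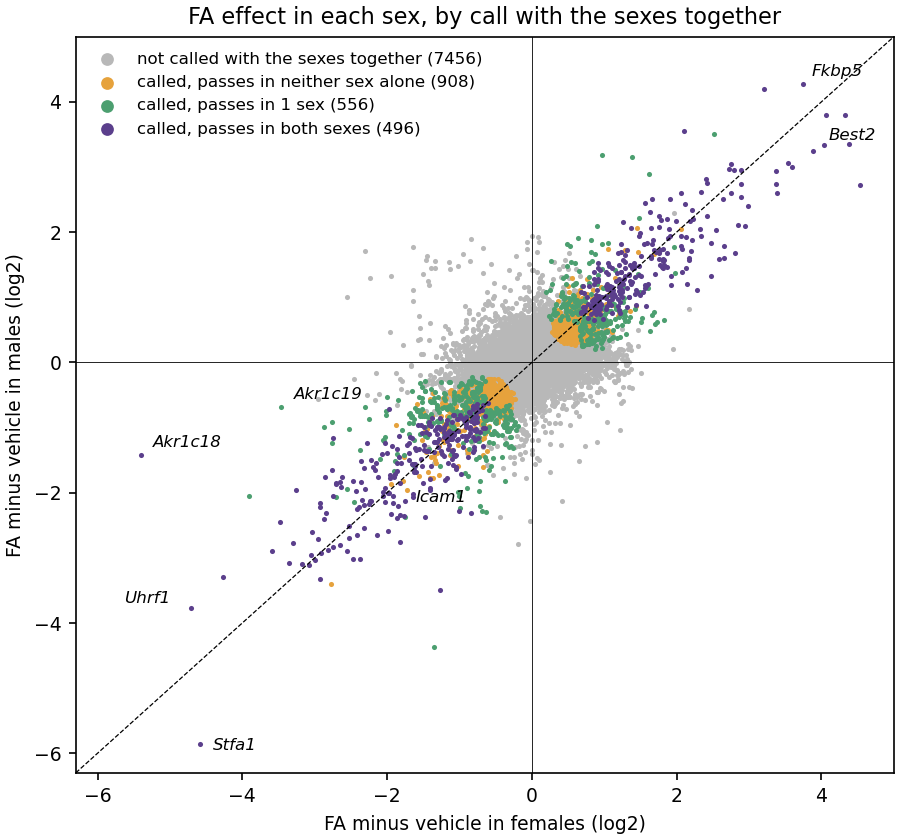
The FA effect (FA minus vehicle, log2) in females (horizontal axis) against that in males (vertical axis) for 9416 genes, coloured by the result with the sexes together and in each sex. The 1960 called genes lie in the 2 quadrants where both sexes have the same sign, which the pooled test all but requires. The 908 that pass in neither sex alone have a median size of 0.57, against 1.35 for the 496 that pass in both.

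The effect differed between the sexes, by the test of the interaction itself, for 2 genes (0.0212%), Akr1c18 and Akr1c19, and 618 genes had an unadjusted p under 0.05. Akr1c18, which inactivates progesterone, had 4.62, 4.33, 4.53 and 4.51 on the FA arrays, where it was never detected, against 10.09 and 9.67 in vehicle females and 5.72 and 6.18 in vehicle males. By the mean over both sexes it was at least 6.66-fold lower, with effects of -5.41 in females and -1.43 in males. That bound is therefore not one for males alone. Akr1c19 had 4.80, 4.42, 4.48 and 4.36 on the FA arrays, also undetected, against 8.14 and 8.0 in vehicle females and 5.14 and 5.07 in vehicle males. By the mean over both sexes it was at least 2.66-fold lower, with effects of -3.46 in females and -0.68 in males. This bound, too, is not one for males alone. The sexes differed in vehicle for both genes, and FA arrays of both sexes lay at background, so the size of the fall is bounded by the vehicle level. The interaction was 3.98 ± 0.33 for Akr1c18 (male minus female, adjusted p = 0.0352 by limma) and 2.78 ± 0.26 for Akr1c19 (adjusted p = 0.0451 by limma). Leaving out any 1 of the vehicle or FA male arrays left no gene called for the interaction by limma, with 322 to 493 genes at an unadjusted p under 0.05. There were 1135 calls without FA female 1 and 2 without FA female 2. Both genes belong to a family of similar sequence, whose signals a probe may share.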

How the data were processed

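RNA of mouse epidermis was measured on 8 Illumina bead arrays. The authors deposited 1 table of unprocessed probe intensities with a detection p-value beside each, per the file headers, and a table of log2 values. The deposited log2 values came from limma (version not given in the sources used here), per the submitters' processing notes. They differed by at most 5.00e-09 from limma's neqc (normexp, offset 16, and quantile normalization) recomputed from the deposited intensities. Of 25697 probes the log2 table holds 13247, those whose detection p was below 0.05 on 2 or more arrays.

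Of these probes, 12476 had 1 gene symbol in the platform annotation and 771 had none. The probe with the highest mean stood for each of 9416 genes, 2304 of which had several probes. A linear model with sex and treatment was fitted in R 4.3.3 with limma 3.58.1 (lmFit and eBayes, two-sided, Benjamini-Hochberg over 9416 genes). The effects in each sex and the interaction came from a fit of 4 group means. Errors of effects are standard errors. The fit was tested on simulated data. A gene undetected on every array of a group got a bound, from the other group's mean over the floor of each array. Genes undetected on some arrays were kept.

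Groups came from the sample titles. Nothing states that the arrays are separate cultures or litters, so p-values measure the spread between these arrays. The labels state no pairing by replicate number, and the arrays were treated as unpaired. The genes named were the 20 largest changes without overlap and the 10 smallest p in each direction. To these came the 10 smallest p among calls that pass in neither sex, and the interaction calls. Members of the gene lists with the smallest p, the glucocorticoid-induced list and tissue markers were named too. The members and lists were chosen with earlier results of these data known. Promoters are from RefSeq. Alternatives in normalization, probe choice, model and arrays left out are given in the closing section.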

Additional observations from a re-analysis of the deposited data

Results flagged for a closer look

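FA female 2 stood apart from the other FA arrays. It had 32.4% of probes detected, against 44.6% to 46.5% on the other 3 FA arrays, a gap of 0.865 of the range over the group. Its median unprocessed signal was 191, against 101 to 106, a gap of 0.944 of the range. The same ratio, of the gap between the outermost array and the nearest to the range of the 4, was computed for each named gene in both groups, 318 groups in all. It was beyond Dixon's 95% limit for 8 FA groups and 11 vehicle groups, and chance flags about 1 in 20.

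On FA female 2, Nr3c1 was higher than on the other FA arrays (6.43 against 4.53 to 4.67, ratio 0.928), as were Psmb10 (7.92 against 7.46 to 7.54, 0.83) and Sult1a1 (9.28 against 9.12 to 9.14, 0.871). Sgk1 (12.51 against 12.75 to 12.79, 0.874) and Uhrf1 (4.67 against 6.06 to 6.26, 0.874) were lower there. On FA male 1, H2-Eb1 was lower (7.51 against 8.42 to 8.45, 0.97) and Oat higher (9.62 against 9.15 to 9.21, 0.868). Adgre1 was higher on FA female 1 (6.60 against 5.56 to 5.73, 0.841).

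Among the vehicle arrays, vehicle female 2 was highest for Aloxe3 (10.14 against 9.90 to 9.92, 0.902) and Pik3r1 (7.84 against 7.46 to 7.52, 0.836). It was lowest for H2ac12 (9.94 against 10.27 to 10.33, 0.832), Psmb10 (8.75 against 9.44 to 9.51, 0.912) and Krt14 (15.13 against 15.46 on each of the others, 1). Since 15.46 is the highest value that the normalized scale holds on each array, this ratio of 1 is no measured difference. Vehicle male 2 was highest for Krt1 (9.87 against 9.32 to 9.38, 0.896) and Sycn (4.93 against 4.43 to 4.50, 0.861). It was lowest for Lrig3 (10.45 against 10.72 to 10.77, 0.84) and Sult1a1 (5.82 against 6.48 to 6.50, 0.976). Vehicle male 1 was highest for Hs3st3a1 (5.36 against 4.89 to 4.96, 0.848) and Mmp9 (8.92 against 8.59 to 8.63, 0.869).

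The effect of FA differed between males and females, by the interaction test, for Akr1c18 (3.98, male minus female) and Akr1c19 (2.78).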

How the results depend on the processing

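The direction of every called gene named in the text was the same in all alternatives that tested it. Leaving out each array in turn gave 1172 to 2284 calls, 563 to 1121 of them higher and 609 to 1163 lower, and a median effect of all genes between -0.04 and 0. It gave 216 to 3004 calls in females, 208 to 1497 in males and 0 to 1135 for the interaction. Where limma called no gene for the interaction with an array left out, 322 to 493 genes had an unadjusted p under 0.05. Nr3c1, which was not called, had effects of -0.07 (without FA female 2) to 0.68 (without FA female 1) when 1 array was left out, and of -0.01 with array quality weights, where FA female 2 had a weight of 0.21. With those weights 2602 genes were called and the median effect was 0. Median scaling gave 687 calls, 174 higher and 513 lower, a median effect of -0.19, 410 calls in males and 42 for the interaction, and 36 of the 159 genes named in the text lost their call. Median scaling on probes detected on all 8 arrays, chosen after seeing the data, gave a median effect of 0.05 and 0 calls for the interaction by limma, with 884 genes at an unadjusted p under 0.05. Without background correction there were 1508 calls in females, 1285 in males and 5 for the interaction, and the median effect was -0.01. With probes detected on all 8 arrays the median effect was 0.04, and 0 genes were called by limma for the interaction (457 at an unadjusted p under 0.05). With values set to the floor of each array the median effect was 0.10, again with 0 such calls (630 at an unadjusted p under 0.05). Trended and robust variances gave 1502 calls in females, 1280 in males and 7 for the interaction. The causes of these shifts were not tested. The mean of all probes gave 1918 calls, no sex covariate 1799 and 4 group means 1955, all within 1.5 times of 1960. The labels state no pairing by replicate number. The deviations of same-numbered FA and vehicle arrays correlated at 0.019 in females and at -0.034 in males. With 2 arrays a group this is a single contrast in each sex, which cannot decide whether arrays were paired. A replicate block gave 1474 calls, 684 higher and 790 lower. A fit with no filter on dim probes was not run, because the probe annotation used here covers the filtered probes. Signal over background limits the dim genes, most of all on FA female 2.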

Other observations

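Histone genes were split by family when they were grouped by symbol, a grouping chosen after their values were seen. Of 12 H2A genes tested, 9 were called lower and 1 higher, with a median effect of -2.54. Their mean level was 7.13 to 7.60 on the FA arrays and 8.91 to 9.35 on the vehicle arrays. Among 9 H4 genes 5 were called higher and none lower, with a median of 0.80, but 1 of the 9 was detected on all 8 arrays. The H2B genes gave 1 rise and no fall among 8, and none of 7 H3 genes was called. The copies within a family are nearly identical, so a probe may read several of them, and these values carry no test of their own.

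Detection on whole groups drew out further genes, chosen after their values were seen. On all 4 FA arrays and no vehicle array 10 genes were detected, of which 8 were called higher. Besides Best2 they included Sycn, which encodes a protein of secretory granules, at least 3.45-fold higher, Adm, which encodes the vasodilator adrenomedullin, at least 1.74-fold higher, and Klf15, a Kruppel-like factor that glucocorticoids induce, at least 1.55-fold higher. The reverse pattern held for 71 genes, of which 62 were called lower. They included Timeless and Rad54l, which act at replication forks and in repair, and E2f1, a transcription factor of S phase, at least 2.85-fold, 1.97-fold and 2.64-fold lower in FA.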
